A study of Ovis aries with 9 samples.

Results

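The initiator caspases CASP2, CASP8 and CASP9, the effector caspase CASP6, the death receptor FAS, its adaptor FADD, the kinase RIPK1 and the apoptosome scaffold APAF1 were followed in ovine granulosa cells (GCs) given different amounts of glucose. Members were taken by gene symbol from the gene expression table, and each of the 8 symbols had 1 row among 39157 genes. GCs line the ovarian follicle and nourish the oocyte within it. The cells came from thin-tailed Han sheep, were held without glucose and serum, and then received glucose at 0 mM in the CON group, at 8.4 mM in the LOW group and at 33.6 mM in the HIGH group for a further 24 h, with 3 RNA-seq libraries in each. The methods describe GCs pooled from many ovaries, while the study elsewhere speaks of its replicates as individuals. Whether the libraries of a group came from separate animals could not be settled, so every p-value measures the spread between these libraries, which may be technical. The question was whether transcript levels of these death genes differed without glucose or at high glucose.

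Apoptosis is reached by a receptor route and a mitochondrial route. In the receptor route, FAS on the cell surface binds its ligand, FADD joins the receptor through its death domain, and CASP8 is recruited to FADD and activated. RIPK1 is a kinase of the tumor necrosis factor receptor complex that can favor either survival or death. In the mitochondrial route, cytochrome c released from mitochondria binds APAF1, which assembles into the apoptosome and activates CASP9. CASP2 is activated on a separate platform after stress or DNA damage, and CASP6 is an executioner that cleaves nuclear lamins. Caspases are made as inactive precursors and are switched on by cleavage, so a transcript level is not a measure of their activity. Death of GCs accompanies atresia, the loss of ovarian follicles before ovulation.

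Values are FPKM, sequenced fragments corrected for transcript length and library depth, so levels of different genes can be compared per length. An FPKM of 1 corresponded to 48.0 to 71.3 fragments per kilobase over the 9 libraries, as inferred from the deposited tables. The lowest value of any member, CASP2 in HIGH replicate 3, corresponded to 129.3 fragments per kilobase. The cells were checked against granulosa markers. Of 10 markers listed, 7 had a row and 5 of these reached an FPKM of 1 in every library. Their summed FPKM was highest without glucose, where the CON libraries spanned 45.7 to 51.0. Before any scaling of libraries to a common median, the LOW libraries spanned 39.2 to 42.3 and the HIGH libraries 39.3 to 44.1. Both glucose groups thus lay wholly below CON on this unscaled measure, which was used for all marker values here. Without scaling, the median log2 fold change of all genes tested was -0.09 for LOW over CON and 0.03 for HIGH over CON. Whether the marker sums still separate after scaling was not tested. Single markers had unlike courses: by group mean (CON, LOW, HIGH), INHA was 15.2, 13.2 and 9.93, whereas GATA4 was 5.61, 4.16 and 7.41. FSHR, the receptor of follicle-stimulating hormone, lay between 0.218 and 0.564. CYP19A1, AMH and FOXL2 had no row under these symbols and were not analysed here. Stroma and smooth muscle markers had 6 of 6 genes above an FPKM of 1 in every library, and their summed FPKM ranged over 5076 to 6607 among CON libraries, 5280 to 5577 among LOW libraries and 4305 to 5643 among HIGH libraries. The sum covers members with unlike courses, since mean FPKM of COL1A1 was 26.5, 24.3 and 80.2 in CON, LOW and HIGH, and that of TAGLN 2095, 1939 and 1472. Summed leukocyte markers were 17.7 to 20.6, 15.7 to 17.5 and 14.3 to 17.9 in the order CON, LOW and HIGH. Most of this sum was CD68, with means of 12.2, 9.79 and 8.23, and CD14, with means of 7.02, 6.45 and 6.92. PTPRC went the other way at 0.0744, 0.167 and 0.314, and CSF1R stayed at 0.313 or less. The summed markers of theca, endothelium and oocyte stayed at 1.16 or less. The part of cell makeup in the levels below was not tested, and fewer cells of a type cannot be told apart from less RNA per cell.

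All 8 members were expressed in every library, with mean FPKM from 3.62 to 31.7. RIPK1 was highest, with a mean over 9 libraries of 31.7, followed by CASP6 at 14.8, APAF1 at 10.7, FAS at 9.26, CASP9 at 9.25, FADD at 8.97, CASP8 at 4.08 and CASP2 at 3.62. RIPK1 was above CASP6 in 9 of 9 libraries and FADD above CASP8 in 9 of 9, so these steps exceeded the spread between libraries. CASP6 was above APAF1 in 8 of 9 libraries and CASP8 above CASP2 in 8 of 9. The 4 genes in the middle could not be ordered. APAF1 was above FAS in 6 of 9 libraries, FAS above CASP9 in 3 of 9 and CASP9 above FADD in 6 of 9.

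**Figure D1:**
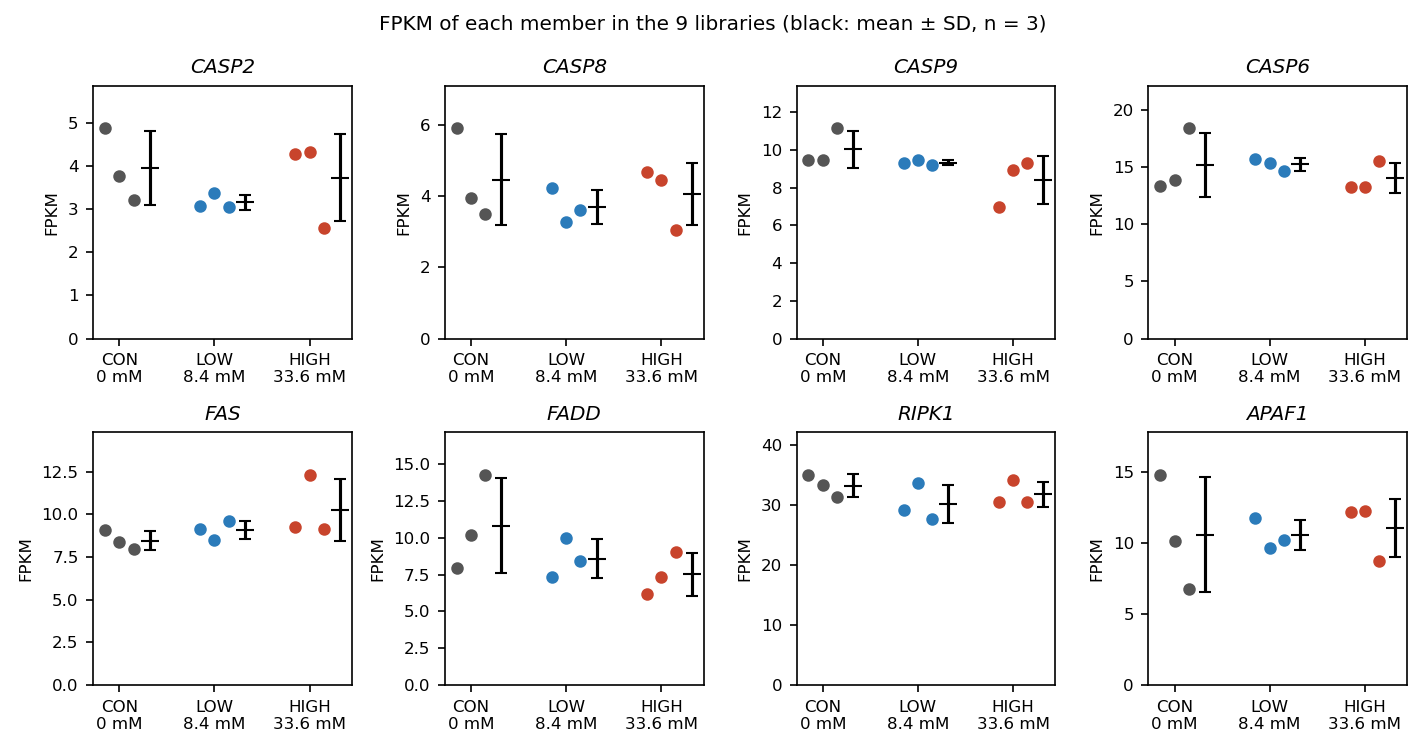
FPKM of each of the 8 genes (y axis, from 0) in the CON, LOW and HIGH groups (x axis, with the glucose concentration). Each colored point is 1 library, and the black bar is the mean ± SD of 3 libraries. For FADD and APAF1 the CON libraries spread from 7.94 to 14.3 and from 6.77 to 14.8, wider than any shift between groups.

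None of the 8 members differed between glucose groups by the call used for all genes, an adjusted p under 0.05 with an absolute log2 fold change above 1 in limma. The called share of the 25531 genes tested was 0.00783% in LOW versus CON, 0.00783% in HIGH versus CON and 0.00783% in HIGH versus LOW, which is 2 genes in each. A count of 0 among 8 members therefore says little about the members in particular. At an unadjusted p under 0.05, the members gave 0 of 8 in LOW versus CON, 1 of 8 in HIGH versus CON and 0 of 8 in HIGH versus LOW, against 1.95%, 6.58% and 7.56% of all genes. The median log2 fold change of the members was -0.02, -0.06 and 0.01 in the 3 comparisons, beside 0.01, 0.07 and 0.06 for all genes tested. DESeq2 on the deposited gene counts called 166, 175 and 341 genes in the 3 comparisons and edgeR 2 in each, and both called 0 of the 8 members.

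The intervals show how large a change these libraries could have missed. Over the members, the 95% intervals of the fold change ran from 0.576 to 1.59 in LOW versus CON, from 0.482 to 1.59 in HIGH versus CON and from 0.553 to 1.51 in HIGH versus LOW. The narrowest were those of RIPK1, with a log2 fold change of -0.04 (95% interval -0.29 to 0.21) in LOW versus CON and -0.02 (-0.27 to 0.23) in HIGH versus CON. The widest were those of FADD, and only its interval in HIGH versus CON reached a change of 1 on the log2 scale.

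**Figure D2:**
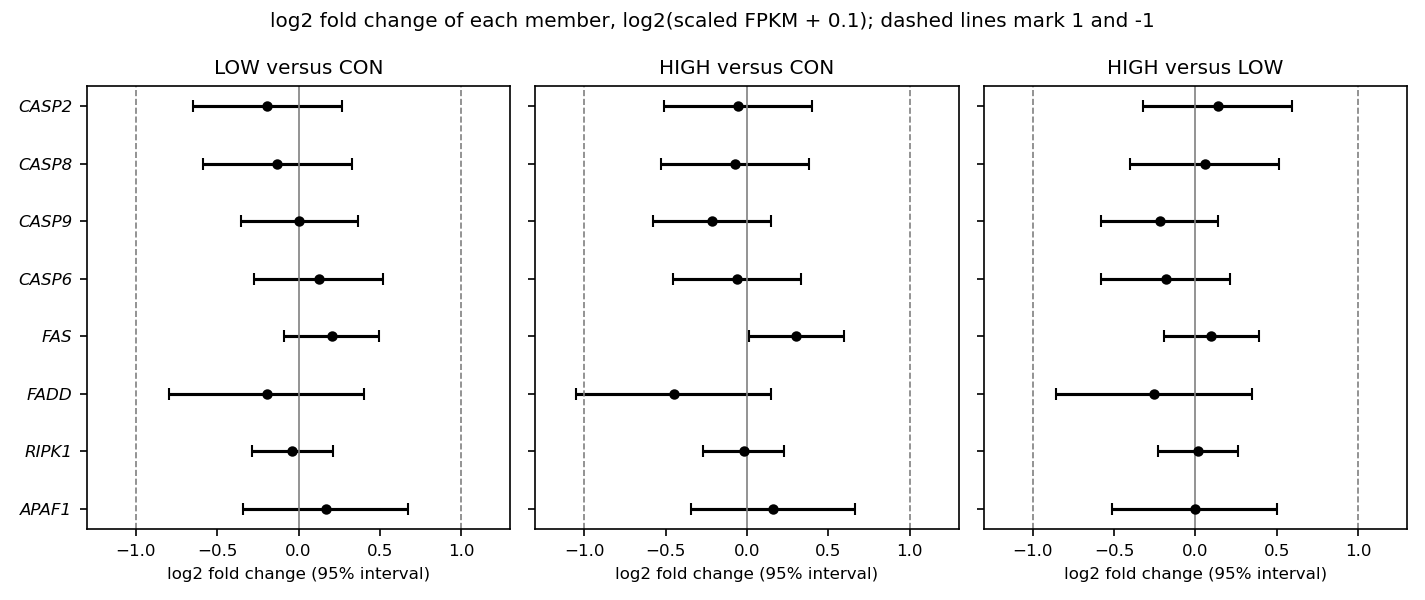
log2 fold change of each gene (x axis, first-named group over the second, on log2(scaled FPKM + 0.1)) with its 95% interval, in 1 panel per comparison. All intervals include 0 except that of FAS in HIGH versus CON, 0.01 to 0.60.

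Taken as a whole row, FAS, the death receptor, was the member with the most regular order of groups. Its FPKM was 9.08, 8.35 and 7.96 in CON, 9.14, 8.50 and 9.61 in LOW, and 9.27, 12.3 and 9.11 in HIGH, giving means of 8.46 ± 0.571, 9.08 ± 0.555 and 10.2 ± 1.81 (SD, n = 3). HIGH lay above CON in all libraries by a narrow margin, and the HIGH mean leaned on replicate 2. After scaling of each library to a common median, the CON values closed up to 8.13 to 8.19, below all LOW values (8.88 to 10.2) and all HIGH values (9.22 to 11.7). FAS was the only member whose groups did not overlap on this scale, in LOW versus CON and in HIGH versus CON, where 6.17% and 9.35% of all genes did not overlap; in HIGH versus LOW none of the 8 members was free of overlap, against 18.7% of all genes. The log2 fold change was 0.21 in LOW versus CON (95% interval -0.09 to 0.50, unadjusted p = 0.148) and 0.30 in HIGH versus CON (0.01 to 0.60, unadjusted p = 0.0434, limma adjusted p = 0.659), and these comparisons share the CON libraries. The difference did not pass the adjustment over all genes. Its unadjusted p was under 0.05 in 9 of 22 alternatives, which gave log2 fold changes of 0.14 to 0.37, and without HIGH replicate 2 the value was 0.20 (unadjusted p = 0.188). Of the variation of FAS over 9 libraries, 61.3% lay between groups, beside a median of 24.0% for all genes.

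The FAS row on chromosome 22, from 10424266 to 10460015 in the files' coordinates, combined 6 transcripts. The annotated transcript FAS-201 held 30.9 to 49.4% of the row, with FPKM of 2.81, 3.91 and 3.29 in CON, 3.60, 3.01 and 4.25 in LOW, and 2.86, 5.65 and 4.50 in HIGH. Its groups overlapped, and its log2 fold change in HIGH versus CON was 0.37 (95% interval -0.24 to 0.99, unadjusted p = 0.204). The assembled transcript TCONS_00162743 ranged from 0 to 2.50 and had no stable level within LOW or HIGH. It was at 0.0633 or less in all CON libraries and listed at 0 in HIGH replicate 3. In LOW replicates 2 and 3 and in HIGH replicates 1 and 2 it lay between 1.53 and 2.50. Its group means were 0.0263, 1.18 and 1.61 in CON, LOW and HIGH, beside 8.46, 9.08 and 10.2 for the whole row. The higher row means in LOW and HIGH thus rested largely on this assembled transcript. The row also took in FAS-AS1, named as an antisense transcript of FAS, with 2.91 to 8.83% of the FPKM. Since no source used here states that strand was used, reads of FAS and FAS-AS1 may not have been separated.

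FADD, the adaptor between FAS and CASP8, had the largest fold change of any member and also the largest spread. Its FPKM was 7.94, 10.2 and 14.3 in CON, 7.35, 10.00 and 8.40 in LOW, and 6.19, 7.31 and 9.07 in HIGH. The group means were 10.8 ± 3.22, 8.58 ± 1.33 and 7.52 ± 1.45 (SD, n = 3), but the groups overlapped in every comparison. The log2 fold change was -0.45 in HIGH versus CON (95% interval -1.05 to 0.15, limma adjusted p = 0.659), -0.20 in LOW versus CON and -0.25 in HIGH versus LOW. Without CON replicate 3, LOW versus CON turned to 0.07 and HIGH versus CON moved to -0.19, while without CON replicate 1 HIGH versus CON became -0.70 (unadjusted p = 0.0178, adjusted p = 0.181).

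The spread of FADD came from its annotated transcript. The FADD row, on chromosome 21 from 46672617 to 46681467, held FADD-201 and the assembled transcript TCONS_00159138. FADD-201 ranged from 3.68 to 11.2 over the 9 libraries, a 3.05-fold range, and made up 59.5 to 78.6% of the row. TCONS_00159138 ranged only from 2.27 to 3.06, a 1.35-fold range. FADD-201 was highest in CON replicate 3 and lowest in HIGH replicate 1, as was the whole row, with a log2 fold change of -0.63 in HIGH versus CON (95% interval -1.39 to 0.14, unadjusted p = 0.0976).

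Taken as a whole row, RIPK1 was the steadiest member. Its FPKM was 35.1, 33.3 and 31.3 in CON, 29.2, 33.7 and 27.6 in LOW, and 30.5, 34.2 and 30.6 in HIGH, with means of 33.2 ± 1.87, 30.2 ± 3.15 and 31.8 ± 2.14 (SD, n = 3). The highest library exceeded the lowest 1.27-fold, and the within-group SD of 0.0916 on the log2 scale was the smallest of the 8, beside a median of 0.233 for the 7433 genes in the same range of mean FPKM. Only 4.06% of its variation lay between groups. The row, on chromosome 20 from 49404093 to 49485391, held transcripts from 2 blocks. The main annotated transcript, ENSOART00000001665 from 49466192 to 49485391, carried 65.7 to 81.1% of the FPKM and ranged from 20.1 to 28.5. Of the 8 transcripts, 6 ended at least 3376 bases before this transcript began, and together they held 18.8 to 34.3% of the row. Of these 6, only RIPK1-201 is annotated to the gene, at an FPKM of 0.168 or less. One annotated transcript, ENSOART00000001663, spans both blocks, at an FPKM of 0.0432 or less. RefSeq, on the assembly ARS-UI_Ramb_v3.0, places BPHL as the neighbor of RIPK1, and no row analysed here carried that symbol. The row of TUBB2A, a tubulin gene with an FPKM of 57.0 to 161.7, overlapped the same stretch by 38110 bases. Taken alone, the main annotated transcript was still above every other member in all 9 libraries.

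CASP8, the initiator caspase recruited by FADD, was low, and no difference between groups was detected. Its FPKM was 5.92, 3.96 and 3.51 in CON, 4.22, 3.28 and 3.62 in LOW, and 4.68, 4.46 and 3.06 in HIGH, with means of 4.46 ± 1.28, 3.71 ± 0.478 and 4.07 ± 0.878 (SD, n = 3). The highest and the lowest CON libraries enclosed all LOW values but 1 and all HIGH values but 1. The log2 fold change was -0.13 in LOW versus CON (95% interval -0.59 to 0.33) and -0.07 in HIGH versus CON (-0.53 to 0.38), and without CON replicate 1 these turned to 0.04 and 0.09. Its single transcript lies on chromosome 2 from 202532016 to 202557903, and the row overlapped that of FLACC1, at an FPKM of 0.339 or less, by 3111 bases.

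CASP2 was the lowest member. Its FPKM was 4.89, 3.78 and 3.21 in CON, 3.07, 3.37 and 3.05 in LOW, and 4.29, 4.34 and 2.58 in HIGH, with means of 3.96 ± 0.854, 3.16 ± 0.181 and 3.74 ± 1.00 (SD, n = 3). The LOW libraries lay close together within the range of HIGH. The log2 fold change was -0.19 in LOW versus CON (95% interval -0.65 to 0.26) and 0.14 in HIGH versus LOW (-0.32 to 0.59). Without CON replicate 1 the first was -0.08, and the second was 0.02 without HIGH replicate 1, 0.05 without HIGH replicate 2 and 0.34 without HIGH replicate 3. The single transcript lies on chromosome 4 from 106114020 to 106129831.

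APAF1 and CASP9, the scaffold and the caspase of the apoptosome, did not follow each other over the libraries. The FPKM of APAF1, on chromosome 3 from 167841409 to 167919427, was 14.8, 10.2 and 6.77 in CON, 11.7, 9.67 and 10.2 in LOW, and 12.2, 12.2 and 8.72 in HIGH. Its means were almost level at 10.6 ± 4.04, 10.5 ± 1.06 and 11.1 ± 2.02 (SD, n = 3), and the 3 CON libraries alone covered a wider range than the 6 others. The FPKM of CASP9, on chromosome 12 from 50064179 to 50084648, was 9.46, 9.47 and 11.2 in CON, 9.29, 9.47 and 9.20 in LOW, and 6.98, 8.92 and 9.31 in HIGH. Its means were 10.03 ± 0.976, 9.32 ± 0.139 and 8.40 ± 1.25 (SD, n = 3). On these unscaled values all HIGH libraries lay below all CON libraries for CASP9. After scaling the 2 groups overlapped, at 6.94 to 9.73 in HIGH and 8.50 to 11.4 in CON. The log2 fold change of CASP9 was -0.22 in HIGH versus CON (95% interval -0.58 to 0.15, limma adjusted p = 0.659) and -0.22 in HIGH versus LOW (-0.58 to 0.14, adjusted p = 0.668). Without HIGH replicate 1 these became -0.09 and -0.09, without HIGH replicate 3 -0.33 and -0.33, and without CON replicate 3 the first was -0.10. For APAF1 it was 0.17, 0.16 and -0.01 in the 3 comparisons, and without CON replicate 3 the first 2 turned to -0.08 and -0.09.

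CASP6, the effector caspase, was the second most abundant member. Its FPKM was 13.3, 13.8 and 18.4 in CON, 15.7, 15.4 and 14.6 in LOW, and 13.3, 13.2 and 15.5 in HIGH, with means of 15.2 ± 2.78, 15.2 ± 0.566 and 14.0 ± 1.33 (SD, n = 3). The groups overlapped throughout, and the log2 fold change was -0.06 in HIGH versus CON (95% interval -0.46 to 0.33) and -0.18 in HIGH versus LOW (-0.58 to 0.21). Without CON replicate 3 the first turned to 0.12. The row, on chromosome 6 from 15787449 to 15912295, extended over 104086 bases of the row of MCUB, the next gene in RefSeq. CASP6-201, which ends at 15808837, ranged from 10.9 to 17.3 and held 79.2 to 93.8% of the row. The other 6.16 to 20.8% was held by 6 assembled transcripts that reach 15912295. Unlike the row, CASP6-201 was lower in all HIGH than in all LOW libraries, as 18.7% of all genes did not overlap in this comparison. Its log2 fold change there was -0.23 (95% interval -0.70 to 0.24, limma unadjusted p = 0.291). Across all 8 genes, 24 of 28 transcripts passed the filter, and limma over 40738 transcripts called 0 of them in any comparison, with 0 at an unadjusted p under 0.05 and a lowest adjusted p of 0.726. Of all transcripts tested, 0.0221%, 0.027% and 0.0344% were called in LOW versus CON, HIGH versus CON and HIGH versus LOW, and 2.77%, 5.89% and 6.78% had an unadjusted p under 0.05.

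For 7 of the 8 members most of the variation lay within groups, and some members deviated in opposite directions. The share between groups was 4.06 to 30.7% for these 7. FADD, CASP9 and CASP6 were all highest in CON replicate 3, where APAF1 was lowest, and APAF1, CASP8 and CASP2 were all highest in CON replicate 1. All 28 pairs of members were compared. Taking each gene's deviation from its own mean on the log2 scale, FADD and CASP8 deviated the same way in 0 of 9 libraries, CASP2 and CASP6 in 0 of 9, and APAF1 and FADD in 1 of 9. APAF1 and CASP8 deviated the same way in 8 of 9 libraries, CASP9 and FADD in 8 of 9, and CASP9 and CASP6 in 8 of 9. These pairs are taken from the ends of the range: 6 pairs lay at 0 or 1 library, 19 at 2 to 7 and 3 at 8. The ratio of APAF1 to FADD, both in FPKM, was 1.86, 0.995 and 0.473 in CON, 1.59, 0.967 and 1.22 in LOW, and 1.97, 1.67 and 0.961 in HIGH. CON alone thus held both a ratio near the top of the range and the lowest of all.

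A property of the libraries moved with this division. A library span index was computed as the median log2 deviation of 2196 genes with long genomic spans (65830 bases or more) minus that of 2196 genes with short spans (10040 bases or less), members left out. It was 0.31, -0.07 and -0.59 in CON, 0.06, -0.13 and -0.05 in LOW, and 0.37, 0.18 and -0.10 in HIGH. The deviation of CASP8 had the sign of the index in 9 of 9 libraries, that of APAF1 in 8 and that of CASP2 in 7, whereas FADD had it in 0, CASP9 in 1, and CASP6 and RIPK1 in 2 each. FAS had it in 6. With the index as a covariate, a fit added after the data were seen, the log2 fold change of FADD in HIGH versus CON was -0.12 (SE 0.0931) instead of -0.45 (SE 0.267), that of FAS was 0.30 (SE 0.114) beside 0.30 (SE 0.130), and that of CASP9 was -0.06 beside -0.22. In this fit APAF1 in HIGH versus LOW was -0.20 (95% interval -0.36 to -0.05, unadjusted p = 0.0169, limma adjusted p = 0.267) and CASP8 in HIGH versus CON -0.27 (-0.54 to -0.00101, unadjusted p = 0.0493, adjusted p = 0.553), and it called 0 of 8 members in each comparison. FAS in HIGH versus CON had an unadjusted p of 0.0299 in this limma fit (adjusted p = 0.5). Members with an unadjusted p under 0.05 thus numbered 0 in LOW versus CON, 2 in HIGH versus CON and 1 in HIGH versus LOW. In the same fit 6.98%, 9.02% and 14.5% of all genes had one in these comparisons. What sets the index was not tested.

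**Figure D3:**
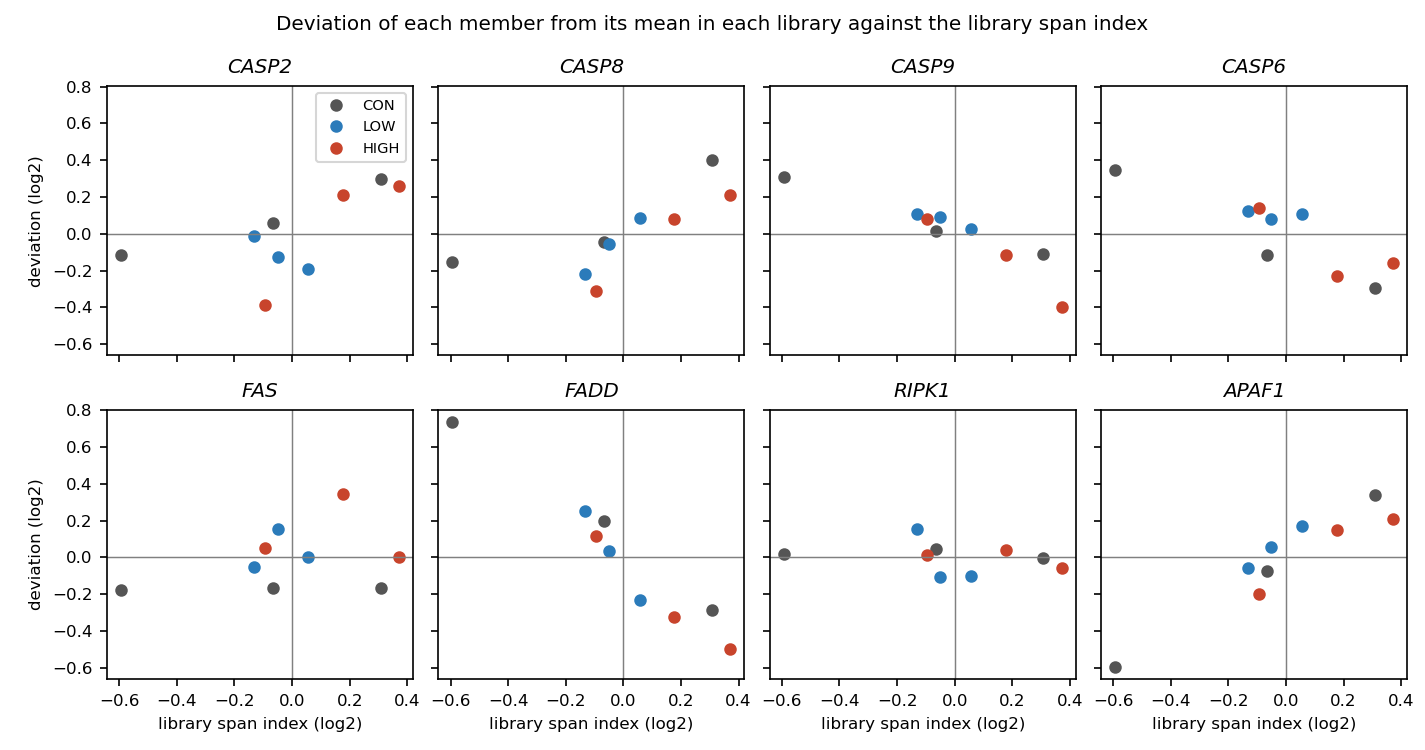
Deviation of each gene from its mean over the 9 libraries (y axis, log2) against the library span index (x axis, log2), 1 point per library, colored by group. FADD goes from 0.74 at the lowest index (CON replicate 3) to -0.50 at the highest (HIGH replicate 1), APAF1 moves from -0.59 to 0.21 between the same libraries, and FAS shows no such order.

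Other genes with the same course over the 9 libraries were sought as a description, by the root mean square difference of log2 deviations among named genes with an FPKM of 1 or more in every library and at least the member's own SD. The nearest gene was ATP6V1A for CASP9 (0.0241, beside an SD of CASP9 of 0.196), AGO3 for APAF1 (0.0443 beside 0.278), SPDL1 for RIPK1 (0.0490 beside 0.0810), IGFBP5 for CASP2 (0.0611 beside 0.229), CAV2 for CASP6 (0.0617 beside 0.210), IPO11 for CASP8 (0.0747 beside 0.223), S100A14 for FADD (0.0783 beside 0.379) and BAMBI for FAS (0.0980 beside 0.171). The match was closest for CASP9 and APAF1 relative to their own SD and loosest for FAS and RIPK1. Each was the best of 1481 (FADD) to 8303 (RIPK1) candidates over 9 libraries, so a match is not particular to the gene named.

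Other genes of the pathway were taken from a list by role. Of 56 genes listed, 42 had a row, 36 passed the filter and 0 were called in any comparison. At an unadjusted p under 0.05 there were 0 in LOW versus CON, 1 in HIGH versus CON and 1 in HIGH versus LOW. All genes tested gave 1.95%, 6.58% and 7.56%, with 0.00783% called in each comparison, so these counts do not set the list apart. The gene was DAP3 in both comparisons, lower in HIGH. The median log2 fold change of the 36 was -0.02, -0.12 and -0.08 in the 3 comparisons. DAP3, first described as a mediator of death receptor signaling and also a mitochondrial ribosomal protein, had an FPKM of 5.69, 5.52 and 5.60 in LOW against 3.86, 4.54 and 5.12 in HIGH. Its log2 fold change was -0.38 in HIGH versus LOW (unadjusted p = 0.0401) and -0.40 in HIGH versus CON (unadjusted p = 0.0322, limma adjusted p = 0.659).

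Among ligands and receptors, 6 of 12 were tested and 0 had an unadjusted p under 0.05. FASLG, the ligand of FAS, was listed at 0 in all 9 libraries, and TNF and LTA were also below the filter. TNFRSF1A, the main receptor of tumor necrosis factor, had the lowest p of the list in LOW versus CON, with an FPKM of 40.1, 43.5 and 48.0 in CON against 34.2, 37.9 and 35.2 in LOW and a log2 fold change of -0.19 (95% interval -0.50 to 0.12). Of 15 adaptors and complex regulators, 14 were tested and only DAP3 had an unadjusted p under 0.05. CFLAR, the inhibitor of CASP8 activation, had log2 fold changes of -0.03, 0.22 and 0.26 in the 3 comparisons (unadjusted p of 0.219 or more). The caspase inhibitors (4 of 7 tested), the mitochondrial arm (3 of 6) and the caspase substrates (9 of 10) each held 0 genes at an unadjusted p under 0.05. Beside the shares of all genes, 1.95%, 6.58% and 7.56%, counts of 0 in sets this small say little. PARP1, singled out after its values were seen, stood farthest to the right in both comparisons of HIGH. Its log2 fold change was 0.93 in HIGH versus CON (95% interval -0.26 to 2.11) and 0.96 in HIGH versus LOW (-0.23 to 2.14). In LOW versus CON it was -0.03.

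**Figure D4:**
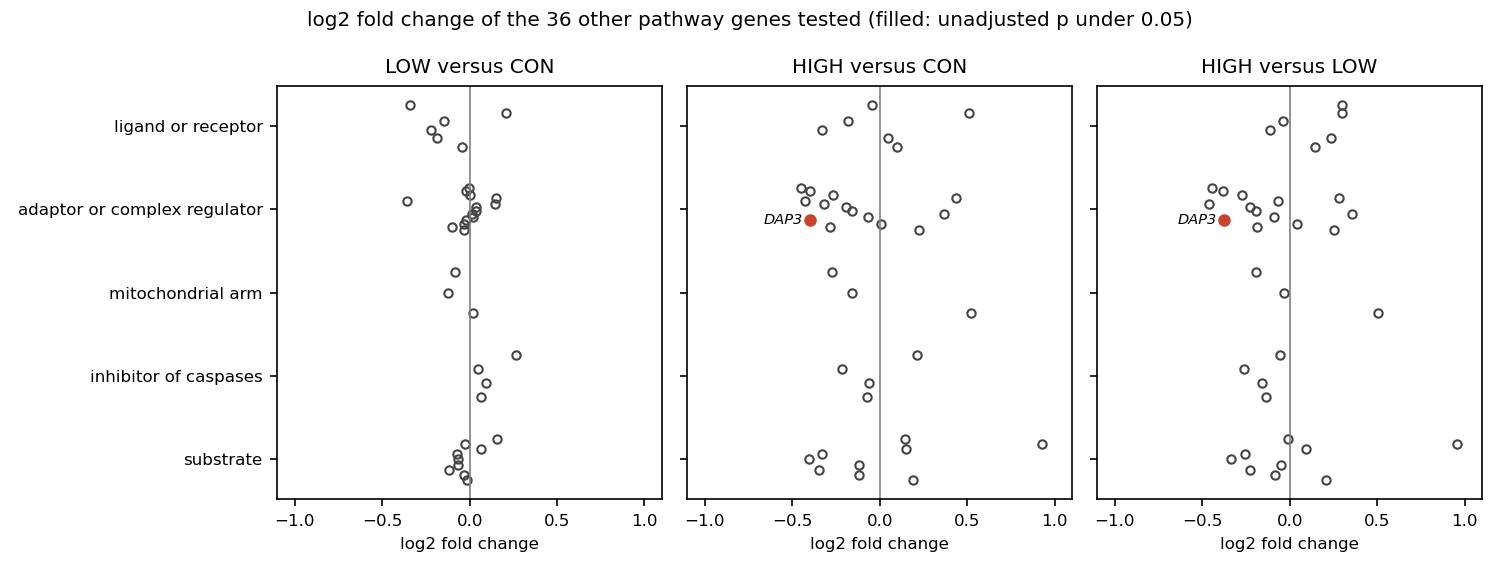
log2 fold change (x axis) of the 36 pathway genes tested other than the members, by role (y axis), in 1 panel per comparison. Filled points have an unadjusted p under 0.05 and are labeled: DAP3 at -0.40 in HIGH versus CON, and at -0.38 in HIGH versus LOW.

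TXNIP, whose transcription is induced by glucose, served as a check of the treatment. Its FPKM was 76.2, 90.4 and 102.8 in CON, 210.9, 216.3 and 218.3 in LOW, and 180.4, 215.3 and 206.9 in HIGH, with no overlap between CON and either glucose group. The log2 fold change was 1.38 in LOW versus CON (95% interval 1.00 to 1.75, limma adjusted p = 0.123) and 1.21 in HIGH versus CON (0.84 to 1.59, adjusted p = 0.179), so the gene did not pass the call in this fit. It passed in 6 of 22 alternatives in LOW versus CON and in 5 of 22 in HIGH versus CON. Among these were DESeq2 (adjusted p = 1.18e-09 and 6.05e-07), limma with the span index as a covariate (0.00022 and 0.000268) and limma without CON replicate 3 (0.0283 and 0.048). With edgeR on the same deposited counts as DESeq2 it did not pass (adjusted p = 0.265 and 0.494). Every member's change was smaller than these changes of TXNIP against CON, with 0.45 as the largest absolute log2 fold change.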

How the data were processed

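GCs of 3 groups (CON, LOW and HIGH glucose, 3 libraries each) were profiled by RNA-seq of ribosomal RNA-depleted total RNA. The authors aligned filtered reads with Hisat2, assembled transcripts with Stringtie and deposited FPKM per gene and per transcript, and the submitters' processing notes also name TopHat2, STAR 2.5.1b and HTSeq 0.6.0. Estimated count tables were deposited too, but transcript counts lay within 3% of FPKM times genomic span times 1 factor per library, and 61.2 to 66.7% of gene counts equaled the sum of their transcripts within 3%. They were treated as rescaled FPKM and used for depth and for alternatives only. The genome build is not given in the sources used here. Library groups followed the sample titles, and 0 sample columns were left unassigned.

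Libraries were scaled to a common median over the genes that reached an FPKM of 1 in all 9. Genes were kept where 3 or more libraries reached an FPKM of 0.1. The test was limma-trend (limma 3.58.1 in R 4.3.3) on log2(FPKM + 0.1), fitted to all 9 libraries at once, with Benjamini-Hochberg adjustment over all genes. A gene was called at an adjusted p under 0.05 where its log2 fold change was also above 1 or below -1. The group named first is the numerator of each fold change, and the pseudocount understates changes of low genes. Transcripts were fitted in the same way with the gene scaling factors, after transcripts of Ensembl genes without a symbol were put on the gene scale. The procedure was tested on simulated data. Figures were drawn with Python and matplotlib.

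Members and lists were chosen with earlier results of these data known. Named genes were the members, any called pathway gene, the pathway gene with the smallest p per comparison, the nearest gene to each member and TXNIP. CFLAR and PARP1 were named outside this rule, after their values were seen. Some genes of the pathway are not reported here. Alternatives were a pseudocount of 1, no filter, a filter at an FPKM of 1, no scaling, only the 2 groups compared, a replicate block, no trend, edgeR 4.0.16 and DESeq2 1.42.0 on the estimated counts rounded to whole numbers, and each library left out. The library span index as a covariate, a span of at least 300 bases, TMM scaling and the main annotated transcript of 4 members were added after the data were seen.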

Additional observations from a re-analysis of the deposited data

How the results depend on the processing

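The count of members called stayed at 0 of 8, and that of pathway genes at 0 of those tested, in each comparison under every alternative run. All genes called numbered 2 in each comparison and moved as follows. DESeq2 gave 166 (LOW versus CON), 175 (HIGH versus CON) and 341 (HIGH versus LOW), and the cause was not tested. FPKM of 1 or more in 3 libraries gave 1, 3 and 1. Without scaling 3, 2 and 2 genes were called, and with TMM 3, 3 and 2. Fitting only the 2 groups gave 1 in HIGH versus CON and 6 in HIGH versus LOW. The span index as a covariate gave 4, 6 and 4. Leaving out 1 library gave 0 to 5, 2 to 7 and 1 to 4. Whether replicate numbers paired the samples could not be settled. Of 9 correlations between same-numbered libraries, 4 exceeded 0.1 (-0.026 to 0.415). The highest were those of CON with HIGH, at 0.408 for replicate 1 and 0.415 for replicate 3. With the replicate block, 3, 4 and 2 genes were called, and FADD beside FAS had an unadjusted p under 0.05 in HIGH versus CON, as did 14.5% of all genes against 6.58% without the block.

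Of the 24 member fold changes, 9 kept their sign throughout. No reversed value had an adjusted p under 0.05, and the largest main value that reversed was 0.20. Without scaling, LOW versus CON turned to -0.10 for CASP9, and HIGH versus LOW to 0.055 for APAF1. With edgeR and DESeq2 respectively, CASP9 in LOW versus CON gave -0.012 and -0.027, CASP6 in HIGH versus CON 0.030 and 0.029, TNFRSF1A in HIGH versus CON -0.039 and -0.038, and RIPK1 in HIGH versus LOW -0.031 and -0.016. With the span index, DAP3 in LOW versus CON was 0.016, CASP6, RIPK1 and APAF1 in HIGH versus CON 0.13, 0.0020 and -0.11, and CASP8 in HIGH versus LOW -0.087. TMM gave 0.0072 for CASP2, 0.0029 for CASP6 and 0.043 for RIPK1 in HIGH versus CON, and 0.044 for APAF1 in HIGH versus LOW. The main annotated transcript of RIPK1 alone gave -0.029 in HIGH versus LOW.

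Leaving out each library turned some signs, over these ranges. In LOW versus CON they were -0.24 to 0.036 for CASP8, -0.087 to 0.12 for CASP9, -0.014 to 0.31 for CASP6, -0.45 to 0.067 for FADD, -0.075 to 0.39 for APAF1, -0.10 to 0.070 for DAP3 and -0.12 to 0.0064 for RIPK1. In HIGH versus CON they were -0.17 to 0.15 for CASP2, -0.19 to 0.091 for CASP8, -0.069 to 0.15 for TNFRSF1A, -0.20 to 0.12 for CASP6, -0.085 to 0.38 for APAF1 and -0.042 to 0.0083 for RIPK1. In HIGH versus LOW they were -0.028 to 0.10 for RIPK1, -0.086 to 0.12 for APAF1, -0.055 to 0.21 for CASP8 and -0.0088 to 0.16 for FAS. Of genes with an unadjusted p under 0.05, the share that was higher was 51.4%, 61.1% and 67.6% in the 3 comparisons, and 23.1%, 32.4% and 74.7% without scaling. Summing all rows of a symbol changed nothing, since each member has 1 row.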
